A study of Mus musculus with 8 samples.

Results

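The respiratory chain and ATP synthase genes were compared between liver of mice with 1 intact copy and with both copies of Mtap. The genes were chosen by symbol, among probe sets that carry exactly 1 gene symbol. They were every gene whose symbol starts with Nduf, Uqcr, Atp5, Cox4i, Cox5, Cox6, Cox7 or Cox8, plus Sdha, Sdhb, Sdhc, Sdhd, Cyc1 and Cycs. The rule itself uses no measured values, but the set was chosen with earlier results of these data known. The rule found 92 genes among 18193, represented by 184 of 45037 probe sets, and each gene was read from its probe set of highest mean signal over the 8 arrays. Complex I gave 42 genes, complex II 4, complex III 9, cytochrome c 1, complex IV 19 and the ATP synthase 17. The 42 complex I genes comprised 6 core subunits, 28 accessory subunits and 8 assembly factors named Ndufaf, which are not part of the finished enzyme. The 19 complex IV genes included 8 isoforms known from heart, muscle, testis or hypoxic tissue, among them Ndufa4l2, and the supercomplex factor Cox7a2l. Subunits encoded by mitochondrial DNA do not carry these symbols and were not analysed here.

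Of the mice, 4 were heterozygous for Mtap (MTAP+/-, n = 4), and 4 were wild type (MTAP+/+, n = 4). All 8 were males of the C57BL/6 strain aged 92 to 101 days, and RNA of each liver was hybridised to its own Affymetrix array. Mtap encodes methylthioadenosine phosphorylase, which recovers methionine and adenine from the by-product of polyamine synthesis. The labels do not say how the allele was made, which part of the gene it lacks, or whether littermates, collection time or fasting were matched, so these cannot be told apart from genotype here. Values are log2 signals after RMA (robust multi-array average), on which 1 unit is a factor of 2. Changes are MTAP+/- minus MTAP+/+.

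The respiratory chain sits in the inner mitochondrial membrane. Complex I takes electrons from NADH and complex II from succinate, ubiquinone and cytochrome c carry them on through complex III, and complex IV passes them to oxygen. Complexes I, III and IV pump protons, and the ATP synthase uses the returning protons to make ATP. Hepatocytes rely on this chain to burn fatty acids and to supply ATP for glucose and urea synthesis. Most subunits are encoded in the nucleus, imported, and put together with the help of dedicated assembly factors.

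Mtap was lower in all 4 MTAP+/- livers, at 6.90 ± 0.12 (SD, n = 4) against 7.69 ± 0.10 in MTAP+/+ livers, and the groups did not overlap (exact two-sided permutation p = 0.0286, the smallest that 4 against 4 allows). Its 4 probe sets had log2 changes of -0.80, -1.0, -1.63 and -1.50. The tissue label fitted its markers: the 6 hepatocyte genes listed averaged 14.07 in MTAP+/- and 14.05 in MTAP+/+ livers, near the top of the scale. Pairs of arrays correlated at 0.983 to 0.994 over genes. The second MTAP+/- array lay furthest from the others on the second principal component, and it had the lowest 3' minus 5' difference of the Actb and Gapdh controls, 0.713 against 1.08 to 1.12 in the other MTAP+/- livers and 0.880 to 1.04 in MTAP+/+ livers. In whole liver, fewer cells of a type and less RNA per cell cannot be told apart.

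Across the chain the changes were small and mostly negative. No member passed an adjusted p under 0.05 in limma, where 9 of all genes did (0.0495%). The smallest limma adjusted p among members was 0.123, for Cox7c, whose change was above 0 at a dim signal. Among members of mean signal 6 or more the smallest was 0.234. A log2 change below 0 was found for 76 of 92 members (82.6%) and for 54.7% of all genes. The median change was -0.11 over the members and -0.02 over all genes. Members are bright genes, and among the 1715 genes of mean signal 9 or more, 52.6% had a change below 0 with a median of -0.01, against 64 of the 74 members that bright (86.5%).

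At an unadjusted p under 0.05, 11 members were lower (12.0%) and 1 was higher, where all genes gave 4.74% lower and 4.4% higher. Bright genes gave 7.46% lower, and 9 of the 74 bright members were lower at that threshold (12.2%). Every MTAP+/- liver lay below every MTAP+/+ liver for 5 members (5.43%) and above for 1, against 2.7% and 1.95% of all genes and 3.44% lower among bright genes. The changes lay within 0.25 of 0 for 78 of 92 members, and the 95% interval lay within 0.5 of 0 for 64. In simulated data of this design, changes of 0.25 were called in 0.2% of cases and changes of 0.5 in 24.6%. Each simulated run held 200 changed genes, with log2 changes up to 2. More genes were then called per run than the 9 called here, which made the adjusted threshold easier to pass. These shares may therefore be too high for the present data.

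**Figure D1:**
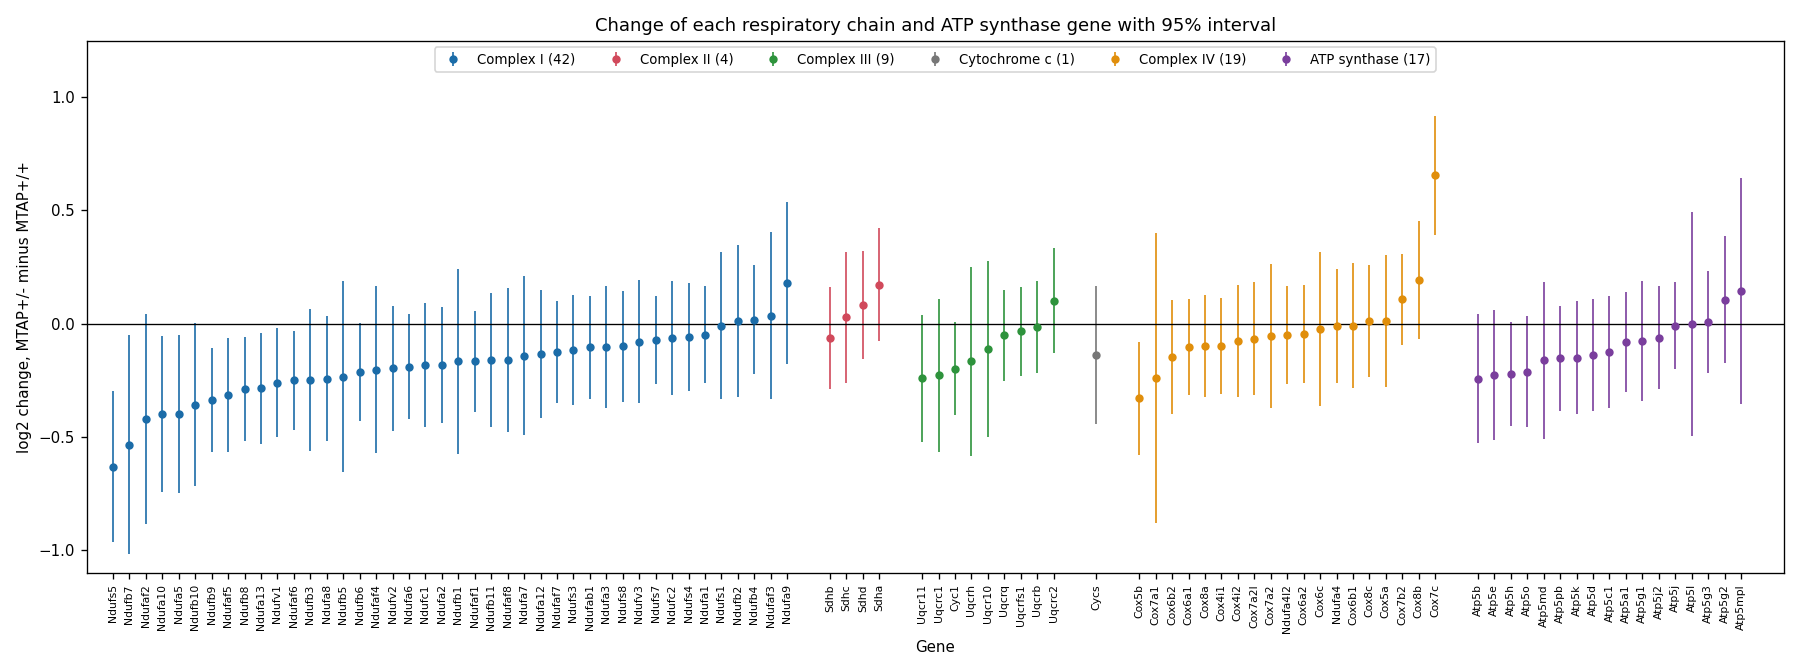
Log2 change, MTAP+/- minus MTAP+/+, of the 92 genes (points) with 95% intervals from limma (bars), grouped by complex and ordered within each. The complex I genes lie mostly below 0, from -0.63 for Ndufs5 to 0.18 for Ndufa9, while 3 of 4 complex II genes lie above it, and Cox7c at 0.65 stands alone at the top.

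Of the 42 complex I genes 38 had a change below 0, with a median of -0.18, and 10 of the 11 members lower at an unadjusted p under 0.05 belonged to it. Those were Ndufs5, Ndufb9, Ndufb8, Ndufaf5, Ndufa13, Ndufa10, Ndufaf6, Ndufa5, Ndufb7 and Ndufv1, of which the first 5 showed no overlap between groups. The mean log2 signal over the 42 genes was 10.23, 10.06, 10.11 and 10.15 in the MTAP+/- livers, against 10.46, 10.32, 10.28 and 10.25 in the MTAP+/+ livers. By this mean all 4 MTAP+/- livers were therefore below all 4 MTAP+/+ livers, and MTAP+/- replicate 1 came close to MTAP+/+ replicate 4. By the median deviation of the 42 genes from the MTAP+/+ mean, the groups overlapped. That median was -0.05 in MTAP+/- replicate 1, against -0.05 and -0.07 in MTAP+/+ replicates 3 and 4. The difference between complexes was not tested. The group means of complex I were 10.14 ± 0.07 in MTAP+/- and 10.33 ± 0.09 in MTAP+/+ livers (SD, n = 4 each).

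Ndufs5, an accessory subunit on the intermembrane side of the membrane arm, had the most negative change of the chain. Its signal was 9.68, 9.97, 9.41 and 9.45 in the MTAP+/- livers, against 10.45, 10.44, 10.15 and 10.00 in the MTAP+/+ livers. No MTAP+/- liver reached the lowest MTAP+/+ liver, and the second MTAP+/- liver came closest. The change was -0.63 ± 0.15 (SE), or 64.5% of the MTAP+/+ level with a 95% interval of 51.2 to 81.2%, and limma gave an adjusted p of 0.234. A second probe set, which the annotation shares between Ndufs5 and its pseudogene Ndufs5-ps, had a change of -0.41 ± 0.13 and an adjusted p of 0.403 over all probe sets.

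Ndufb9, an accessory subunit at the far end of the membrane arm, had signals of 11.89, 11.74, 11.70 and 11.74 in the MTAP+/- livers, against 12.25, 12.21, 12.01 and 11.95 in the MTAP+/+ livers. Ndufb8, from the same region, had 11.22, 11.10, 10.97 and 11.08 in the MTAP+/- livers, against 11.51, 11.47, 11.24 and 11.31 in the MTAP+/+ livers. In both genes the first and second MTAP+/+ livers were high and those of replicates 3 and 4 lay near the MTAP+/- values, without overlap. Their changes were -0.34 ± 0.10 and -0.29 ± 0.10, with limma adjusted p of 0.344 and 0.422. Of the further Ndufb9 probe sets 1 had a change of -0.23, while a dim one had 0.10, and the dim second probe set of Ndufb8 had -0.04.

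Ndufa13, also known as GRIM-19 and needed to assemble the membrane arm, read 12.36, 12.24, 12.15 and 12.22 in the MTAP+/- livers, against 12.67, 12.70, 12.37 and 12.37 in the MTAP+/+ livers. The first MTAP+/- liver and the fourth MTAP+/+ liver were nearly equal. The change was -0.29 ± 0.11 and the limma adjusted p 0.46. The enzyme's core NADH-binding subunit Ndufv1, named here after its values were seen, had a change of -0.26 ± 0.11 with overlapping groups and an adjusted p of 0.501, and its 2 other probe sets both gave -0.23. Further subunits chosen in the same way were Ndufb7 (-0.53), Ndufa10 (-0.40) and Ndufa5 (-0.40), whose groups overlapped. Ndufa3, the small accessory subunit of the highest mean signal after Ndufa13, had a change of -0.10.

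**Figure D2:**
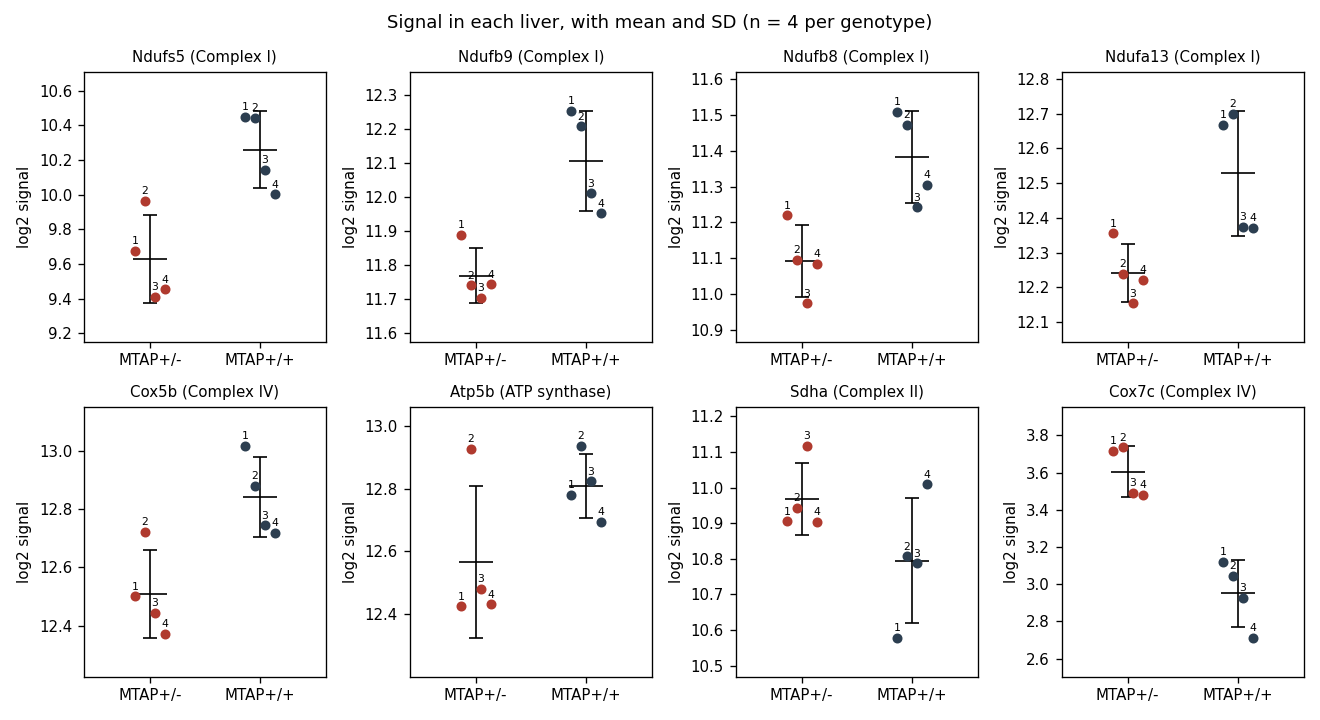
Log2 signal in each liver (points, numbered by replicate) for 8 genes, with the group mean (long bar) and SD (short bars), n = 4 per genotype, on axes that do not start at 0. For Ndufs5, Ndufb9, Ndufb8 and Ndufa13 the first and second MTAP+/+ livers are highest and every MTAP+/- liver lies below every MTAP+/+ liver, and Cox7c shows the opposite order at signals under 4.

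By position in the enzyme, 13 of 14 subunits of the matrix arm had a change below 0 with a median of -0.13, and 17 of 19 subunits of the membrane arm did with a median of -0.24. Of the membrane arm genes 6 were lower at an unadjusted p under 0.05 (31.6%), and 2 of the matrix arm (14.3%). Of all genes 4.74% were lower at that threshold, and of genes of mean signal 9 or more 7.46%. The difference between the arms was not tested. All 6 core subunits that the rule found, from the set that carries out the reaction, had changes below 0 (median -0.11), as had 25 of 28 accessory subunits (median -0.18). The 4 complex I genes at or above 0 were Ndufa9 (0.18), Ndufaf3 (0.04), Ndufb4 (0.02) and Ndufb2 (0.01), named after their values were seen. The Ndufb4 value came from a probe set at 2.61 and 2.59, close to the lowest signals on the arrays. Brighter probe sets shared with the Ndufb4b and Ndufb4c copies, outside the rule for carrying several symbols, averaged 11.04 and 10.58 in MTAP+/- livers, against 11.33 and 10.91 in MTAP+/+ livers, changes of -0.29 and -0.33.

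The Ndufaf assembly factors followed the subunits in direction, 7 of 8 below 0 with a median of -0.19. Ndufaf5, an enzyme that modifies a core subunit during assembly, had 5.95, 5.89, 5.89 and 5.92 in the MTAP+/- livers, against 6.43, 5.95, 6.34 and 6.21 in the MTAP+/+ livers. The groups did not overlap, but the second MTAP+/+ liver was close to the MTAP+/- values. Its change was -0.32 ± 0.11 and its limma adjusted p 0.425. Ndufaf6 had a change of -0.25 ± 0.10 (adjusted p 0.461) and Ndufaf2 one of -0.42 ± 0.21 (adjusted p 0.599), each with overlapping groups.

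Of the members, 6 lie on chromosome 4, which also carries Mtap. All 6 had changes below 0, as had 76 of the 92 members (82.6%) wherever they lie. The 6 were Ndufs5 (-0.63), Ndufaf6 (-0.25), Ndufb6 (-0.21), Ndufaf4 (-0.20), Uqcrh (-0.17) and Sdhb (-0.06). Genotype and the alleles linked to it on that chromosome cannot be told apart in this design.

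The promoters of 3 genes whose groups did not overlap are shown with that of Sdha, which had the opposite sign, so that their motifs can be compared. Each sequence is the 250 bases upstream of the start of the first window listed for the gene in RefSeq (GRCm38.p6). Sequences run 5′ to 3′ on the gene's strand, all of them minus. The windows are chr4:123718187-123718436 (Ndufs5), chr19:44555443-44555692 (Ndufb8), chr8:69902021-69902270 (Ndufa13) and chr13:74350241-74350490 (Sdha). The Ndufa13 window lies inside the annotated span of its gene, which ends at 69902558, while the other windows lie just outside theirs. Capitals mark the NRF1 motif, GCGC and TGCGC with any 1 base between them, in Ndufs5 and Sdha and the SP motif GGGCGG in Ndufb8 and Ndufa13, on either strand.
Ndufs5: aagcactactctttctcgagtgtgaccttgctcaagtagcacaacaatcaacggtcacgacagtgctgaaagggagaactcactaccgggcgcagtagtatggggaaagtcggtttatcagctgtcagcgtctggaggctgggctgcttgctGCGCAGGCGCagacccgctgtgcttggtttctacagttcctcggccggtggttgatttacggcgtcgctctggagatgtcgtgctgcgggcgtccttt
Ndufb8: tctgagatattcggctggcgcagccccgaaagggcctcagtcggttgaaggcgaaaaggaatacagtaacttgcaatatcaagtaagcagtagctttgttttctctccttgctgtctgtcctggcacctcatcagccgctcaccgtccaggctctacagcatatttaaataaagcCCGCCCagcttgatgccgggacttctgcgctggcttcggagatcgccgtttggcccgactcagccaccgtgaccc
Ndufa13: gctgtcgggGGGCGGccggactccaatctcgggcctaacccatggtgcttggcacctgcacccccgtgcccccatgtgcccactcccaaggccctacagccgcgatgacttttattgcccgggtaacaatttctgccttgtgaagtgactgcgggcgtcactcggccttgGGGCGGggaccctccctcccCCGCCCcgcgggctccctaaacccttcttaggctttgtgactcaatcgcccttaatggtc
Sdha: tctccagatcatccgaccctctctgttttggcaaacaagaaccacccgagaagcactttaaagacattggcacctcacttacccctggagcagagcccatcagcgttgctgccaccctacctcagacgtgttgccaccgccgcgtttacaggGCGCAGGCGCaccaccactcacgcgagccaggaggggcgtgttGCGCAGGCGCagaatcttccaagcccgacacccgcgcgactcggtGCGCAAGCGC

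NRF1, GABP (an ETS factor), YY1, SP factors and the oestrogen-related receptors (ERR) are known regulators of respiratory genes. In these windows the NRF1 motif occurred in 11 of 75 matched members (14.7%) and in 3.86% of 27025 gene windows of the same length. The ETS motif CCGGAAG occurred in 17.3% of members and 7.05% of all windows, and the SP motif in 41.3% and 32.9%. The ERR motif TNAAGGTCA was found in 2.67% and 1.14%, the YY1 motif AAGATGGC in 0% and 1.59%, and the clock factors' E-box CACGTG in 8% and 6.05%. Overlapping matches of different motifs each counted. Complex I promoters held the NRF1 motif in 13.2% and those of the other members in 16.2%, while the SP motif stood in 50% and 32.4%. The Ndufs5 window, with 1 NRF1 motif, and the Sdha window, with 3, belonged to genes whose changes had opposite signs.

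Complex II, the succinate dehydrogenase shared with the tricarboxylic acid cycle, was the one complex with a median above 0, at 0.05. Sdha, its flavoprotein and catalytic subunit, had 10.90, 10.94, 11.12 and 10.90 in the MTAP+/- livers, against 10.58, 10.81, 10.79 and 11.01 in the MTAP+/+ livers. The fourth MTAP+/+ liver lay among the MTAP+/- livers, and the other 3 lay below them. The change was 0.17 ± 0.11, with a limma adjusted p of 0.698. A second bright Sdha probe set gave 0.20, and dim ones gave 0.14 and 0.70. The iron-sulphur subunit Sdhb had a change of -0.06, and the membrane anchors Sdhc and Sdhd had 0.03 and 0.08. All groups overlapped, and without the second MTAP+/+ liver the median of the complex was -0.03.

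Complex III hands electrons from ubiquinol to cytochrome c. Of its 9 genes 8 had changes below 0, with a median of -0.11, none at an unadjusted p under 0.05. Cyc1, the haem subunit that meets cytochrome c, had signals of 11.24, 11.41, 11.26 and 11.21 in the MTAP+/- livers, against 11.54, 11.39, 11.46 and 11.52 in the MTAP+/+ livers. The second MTAP+/- liver reached the MTAP+/+ range and the other 3 did not. Its change was -0.20 ± 0.09 and its limma adjusted p 0.563. Uqcr11, a small accessory subunit, had -0.24 ± 0.13, and the core proteins Uqcrc1 and Uqcrc2 had -0.23 ± 0.15 and 0.10 ± 0.10. The brightest gene of the complex, Uqcrb, had -0.02. The complex median was -0.03 without the second MTAP+/- liver and -0.21 without the second MTAP+/+ liver.

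Cycs, cytochrome c itself, had 12.49, 11.89, 12.51 and 12.32 in the MTAP+/- livers, against 12.44, 12.42, 12.52 and 12.37 in the MTAP+/+ livers. The second MTAP+/- liver was low and the other 3 lay within or near the MTAP+/+ range. The change was -0.14 ± 0.14 with all livers and 0.001 without that one.

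Complex IV, cytochrome c oxidase, passes the electrons to oxygen, and 14 of its 19 genes had changes below 0 with a median of -0.05, which was -0.001 without the second MTAP+/- liver and -0.11 without the second MTAP+/+ liver. Cox5b, a nuclear subunit of the complex, had 12.50, 12.72, 12.44 and 12.37 in the MTAP+/- livers, against 13.02, 12.88, 12.74 and 12.72 in the MTAP+/+ livers. The highest MTAP+/- liver equalled the lowest MTAP+/+ liver to 2 decimals. Its change was -0.33 ± 0.11, or 79.5% of the MTAP+/+ level (95% interval 66.9 to 94.5%), with a limma adjusted p of 0.401. Of its other probe sets, 3 bright ones gave -0.31, -0.35 and -0.35 and 2 dim ones 0.06 and 0.03. Cox6a1, the brightest subunit, had -0.11.

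Cox7c, a small accessory subunit, was the one member above 0 with separate groups. Its signal was 3.72, 3.74, 3.49 and 3.48 in the MTAP+/- livers, against 3.12, 3.04, 2.93 and 2.71 in the MTAP+/+ livers. Every one of these values is below the median signal of its array (3.92 to 3.98). The change was 0.65 ± 0.12, with a limma adjusted p of 0.123, the smallest of the 92 genes. Its other probe set gave 0.07, so that the 2 probe sets disagreed, and both lay below the array medians.

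The isoforms of other tissues were dim in these livers. The heart and muscle forms Cox6a2, Cox7a1 and Cox8b, the lung form Cox4i2, the testis forms Cox6b2 and Cox7b2 and the hypoxia-linked Ndufa4l2 all had means under 6, and the testis form Cox8c lay at 6.92 and 6.91. Their changes were -0.05, -0.24, 0.19, -0.08, -0.15, 0.11, -0.05 and 0.01 in that order, with overlapping groups. With these 8 left out, 71 of 84 members had a change below 0.

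The ATP synthase had 14 of 17 genes below 0 and a median of -0.12, none at an unadjusted p under 0.05. All 5 subunits of the catalytic F1 head had changes below 0 (median -0.14), as had all 4 of the peripheral stalk (median -0.18), 4 of 5 further membrane subunits (median -0.06) and 1 of 3 genes for the c ring that turns with the proton flow (median 0.01). Atp5b, the catalytic beta subunit, had 12.42, 12.93, 12.48 and 12.43 in the MTAP+/- livers, against 12.78, 12.94, 12.82 and 12.69 in the MTAP+/+ livers. The second MTAP+/- liver was level with the highest MTAP+/+ liver, while the other 3 were below all of them. The change was -0.24 ± 0.13 with a limma adjusted p of 0.621.

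The stalk subunits Atp5h and Atp5o had changes of -0.22 ± 0.10 and -0.21 ± 0.11, with limma adjusted p of 0.56 and 0.612. Atp5e, the epsilon subunit, had -0.23 ± 0.13, and the stalk subunit Atp5pb had -0.15 ± 0.10. The c ring gene Atp5g3, the brightest of the complex, had 0.01 ± 0.10. Their groups overlapped.

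**Figure D3:**
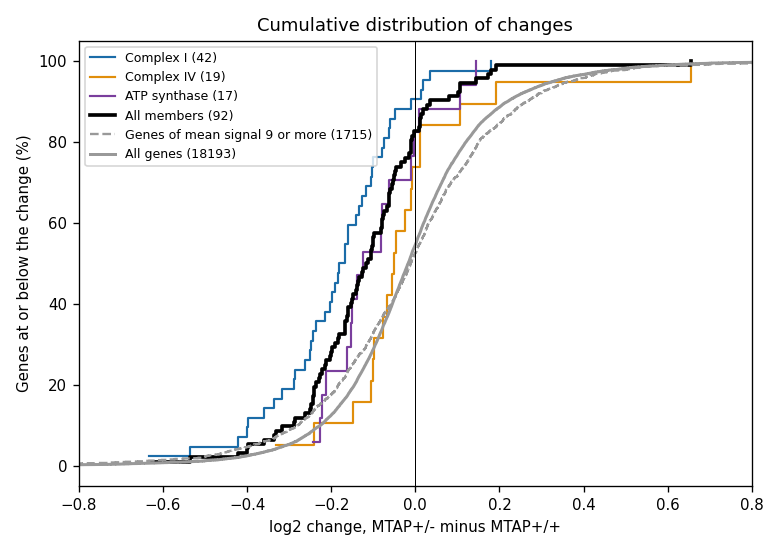
Share of genes (vertical axis, %) at or below each log2 change (horizontal axis, MTAP+/- minus MTAP+/+) for complex I, complex IV, the ATP synthase, all 92 members, the 1715 genes of mean signal 9 or more, and all 18193 genes. At 0 the member curve stands at 82.6% and that of all genes at 54.7%, and the curve of complex I lies furthest to the left.

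Liver by liver, the difference was uneven. The median deviation of the 92 genes from the MTAP+/+ mean was -0.01, -0.15, -0.11 and -0.08 in the MTAP+/- livers, against 0.11, -0.07, -0.02 and -0.01 in the MTAP+/+ livers. The first MTAP+/- liver was thus close to 0, and the first MTAP+/+ liver stood above the rest and the second below. Of the 92 genes, 33 had their lowest value of all 8 livers in the second MTAP+/- liver (35.9%, against 19.0% of all genes). A further 20 had it in the third MTAP+/- liver (21.7% against 9.54%) and 18 in the second MTAP+/+ liver (19.6% against 16.9%). The first MTAP+/+ liver held the highest value for 38 (41.3%, against 18.2% of all genes). Leaving out the second MTAP+/- liver moved the members' median to -0.06 with 64 genes below 0, and leaving out the first MTAP+/+ liver moved it to -0.07 with 74 below 0. The count of members lower at an unadjusted p under 0.05 was 4 without the first MTAP+/+ liver, 5 without the third and 6 without the fourth of the MTAP+/- livers, and 16 without the second MTAP+/- liver. In the same runs 3.08%, 4.19%, 3.28% and 6.30% of all genes were lower at that threshold, so that the 4 of 92 members without the first MTAP+/+ liver and the 5 without the third MTAP+/- liver were near the share of all genes. Of the 92 members, 66 kept the sign of their change whichever array was left out, and 26 turned in at least 1 of those fits.

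**Figure D4:**
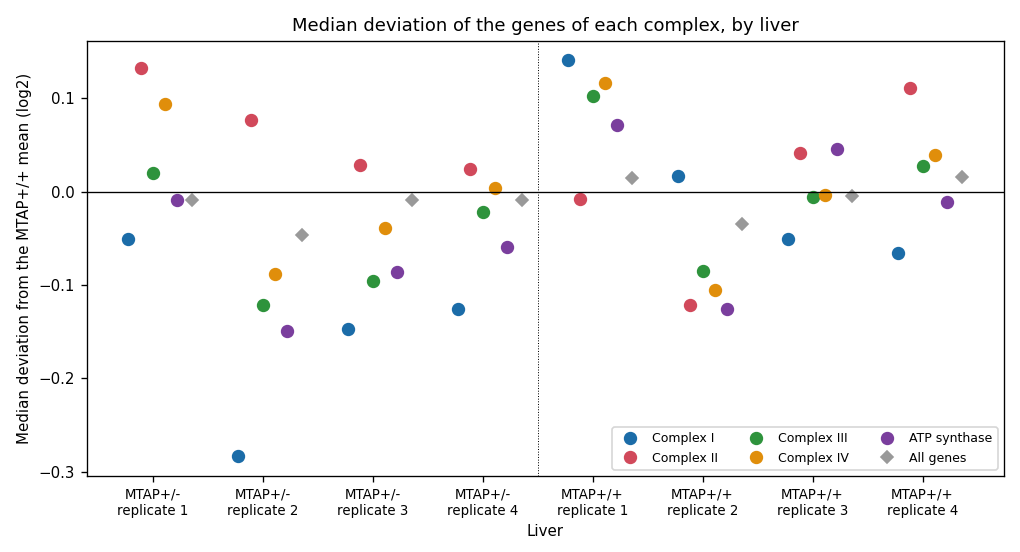
Median deviation from the MTAP+/+ mean (log2) of the genes of each complex (circles) and of all genes (diamonds) in each of the 8 livers, MTAP+/- to the left. Complex I lies below 0 in all 4 MTAP+/- livers, from -0.28 in replicate 2 to -0.05 in replicate 1. It also lies below 0 in MTAP+/+ replicates 3 and 4, at -0.05 and -0.07, so that the groups overlap on this measure. MTAP+/+ replicate 1 has all but complex II above 0.

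Other signals moved with genotype beside these genes. A clock score, the mean of Dbp, Per2, Per3, Nr1d1, Nr1d2 and Tef minus that of Arntl, Npas2, Clock, Cry1 and Nfil3, was 2.64, 2.51, 2.58 and 1.43 in MTAP+/- livers, against 0.14, 0.79, 0.41 and 1.24 in MTAP+/+ livers. The groups did not overlap (2.29 ± 0.58 against 0.64 ± 0.48, SD, n = 4 each, exact two-sided permutation p = 0.0286). With the score as a covariate, 57 members had a change below 0, their median was -0.05, and 0 were lower at an unadjusted p under 0.05, where 1.44% of all genes were. The medians were then -0.09 for complex I, -0.07 for complex II, -0.01 for complex III, 0.02 for complex IV and -0.05 for the ATP synthase. The 3' minus 5' control difference, which overlapped between the groups (exact two-sided permutation p = 0.743), gave a members' median of -0.12 as a covariate.

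Markers of other cells had higher sums in MTAP+/- livers for the macrophage list and the lymphocyte list, while their mean log2 signals overlapped between the groups. For these means the exact two-sided permutation p was 0.171 for the macrophage list and 0.0571 for the lymphocyte list. The summed linear signal of 6 macrophage and Kupffer cell genes was 2130 to 2886 in MTAP+/- livers, against 1723 to 1947 in MTAP+/+ livers, and 5 of the 6 had changes above 0, among them Adgre1 (0.78), while Clec4f, the Kupffer cell lectin, had -0.27. The sum of the 3 measured genes of the lymphocyte list was 158 to 336 in MTAP+/- against 128 to 156 in MTAP+/+ livers. Of these 3, Ptprc had a change of 0.75, Cd79a one of 0.22 and Cd3e one of 0.01. The sum rests mostly on Ptprc, which is not limited to lymphocytes. Ptprc averaged 7.23 in MTAP+/- and 6.49 in MTAP+/+ livers, against 4.56 and 4.34 for Cd79a and 4.79 and 4.78 for Cd3e. None of these genes passed an adjusted p of 0.05 in limma, and the 6 hepatocyte genes had sums of 105060 to 111884 in MTAP+/- and 104348 to 108921 in MTAP+/+ livers. Because the clock score did not overlap between the groups, the fit with it as a covariate cannot tell the clock genes' part from that of genotype. In that fit 0 of all genes were called, and Mtap itself was not called. The part of these cells in the respiratory chain values was not tested.

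The genes that assemble and feed the chain, in lists written for this tissue, gave no call, and the direction was again mostly negative except for carriers and pores. Of 9 measured complex I assembly genes outside the Ndufaf family, 6 had changes below 0 (median -0.11). Ecsit, an assembly factor of complex I, had 7.78, 7.92, 7.99 and 7.80 in the MTAP+/- livers, against 8.39, 8.41, 8.19 and 8.33 in the MTAP+/+ livers. The groups did not overlap, the change was -0.45 ± 0.10 and the limma adjusted p 0.213. Foxred1 and Acad9, of the same process, had changes of -0.31 and -0.26, the second of which was 0.18 with the clock score.

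Complex II assembly genes were below 0 in 3 of 4 (median -0.14), with Sdhaf1, which helps place its iron-sulphur clusters, at -0.46 ± 0.12 without overlap and a limma adjusted p of 0.306. Sdhaf2, which helps attach its flavin, had -0.17, and Sdhaf4 had -0.11, which was 0.16 without the second MTAP+/- liver and 0.34 with the clock score as a covariate. Complex III assembly genes were below 0 in 5 of 6 (median -0.11), with Uqcc2 at -0.44 (0.09 with the clock score), Uqcc1 at -0.20 and the dim Lyrm7 at 0.30.

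Complex IV assembly genes were below 0 in 15 of 20 (median -0.19), and 5 of them were lower at an unadjusted p under 0.05, as were 4.74% of all genes. Sco2, a copper chaperone of the enzyme, had 8.77, 8.94, 8.84 and 8.97 in the MTAP+/- livers, against 9.40, 9.51, 9.20 and 9.17 in the MTAP+/+ livers. The groups did not overlap, with a change of -0.44 ± 0.11 and a limma adjusted p of 0.246. Coa6 and Cox11, both with parts in copper delivery, had -0.60 ± 0.17 and -0.37 ± 0.11, also without overlap, and limma adjusted p of 0.315 and 0.341. These assembly genes thus had a more negative median than the complex IV subunits themselves, a difference that was not tested. ATP synthase assembly genes were below 0 in 4 of 5 (median -0.08), with Dmac2l at 0.17, Tmem70 at -0.10 (0.17 with the clock score) and Atpaf2 at -0.08.

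The nuclear and mitochondrial regulators of respiratory genes were below 0 in 10 of 16 (median -0.05). The helicase of mitochondrial DNA, Twnk, had -0.33 ± 0.12 without overlap and a limma adjusted p of 0.422. The mitochondrial RNA polymerase Polrmt had -0.30 and the methyltransferase Tfb1m had -0.21. The transcription factor genes Nrf1, Gabpa, Yy1 and Esrra and the coactivator gene Ppargc1a, named here for their motifs and roles after their values were seen, had changes of -0.16, 0.18, -0.25, 0.01 and 0.51, all with overlapping groups.

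The genes that bring electrons to ubiquinone or make it were below 0 in 13 of 17 (median -0.14), 5 lower and 1 higher at an unadjusted p under 0.05, where 4.74% of all genes were lower and 4.4% higher. Coq8a, a kinase-like protein of ubiquinone synthesis, had 9.33, 9.83, 9.21 and 9.62 in the MTAP+/- livers, against 10.31, 10.17, 10.03 and 9.82 in the MTAP+/+ livers. The lowest MTAP+/+ liver lay just under the highest MTAP+/- liver. Its change was -0.59 ± 0.15 and its limma adjusted p 0.296. Etfb, a subunit of the flavoprotein that passes electrons from fatty acid oxidation, had -0.47 ± 0.14 without overlap and a limma adjusted p of 0.336. Coq10b, a ubiquinone-binding protein, went the other way at 0.78 ± 0.22, with overlapping groups and a limma adjusted p of 0.31.

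The carriers and pores had 1 of 7 below 0 and a median of 0.02, with the ADP/ATP carrier Slc25a4 at 0.37 (0.12 without the second MTAP+/- liver), the uncoupling protein Ucp3 at 0.19 and the outer membrane channel Vdac1 at 0.15. The tricarboxylic acid cycle genes were below 0 in 10 of 13 (median -0.06). Cs, the citrate synthase that opens the cycle, had 8.83, 9.23, 8.80 and 8.78 in the MTAP+/- livers, against 9.60, 9.24, 9.31 and 9.49 in the MTAP+/+ livers. Its groups did not overlap but nearly touched, with a change of -0.50 ± 0.13 and a limma adjusted p of 0.291. The isocitrate dehydrogenase genes Idh3a and Idh2 had changes of -0.43 and -0.39.

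**Figure D5:**
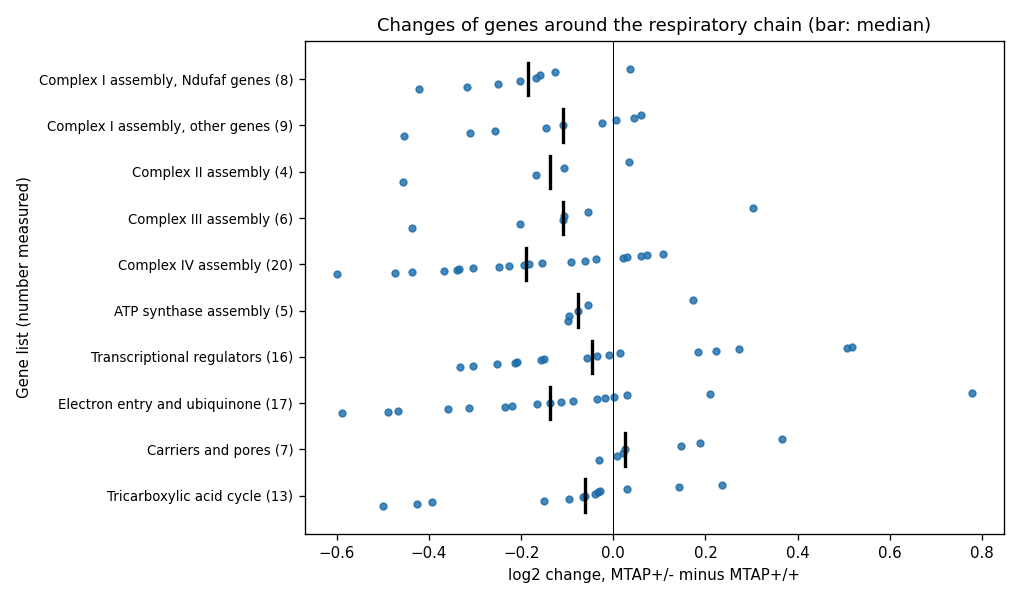
Log2 change (MTAP+/- minus MTAP+/+, horizontal axis) of each measured gene (points) in 10 lists of genes around the respiratory chain (rows), with the list median as a black bar. The medians run from -0.19 for the complex IV assembly genes to 0.02 for carriers and pores, and Coq10b at 0.78 lies furthest to the right.

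Counted over probe sets the direction was alike. Of the 184 member probe sets, 148 had a change below 0 (80.4%), against 52.7% of all 45037 probe sets, and 24 had an unadjusted p under 0.05, of which 22 were lower. Of all probe sets, 3789 had such a p, of which 1734 were lower. Among the 63 further probe sets of mean signal 6 or more, 55 had the sign of the one chosen for their gene. Of the 52 genes with several probe sets, Cox7c and Sdha had 2 that differed by over 0.5.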

How the data were processed

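The deposited log2 signals, 1 per probe set and array, are RMA output of the authors, per the submitters' processing notes. No RMA version, software or genome build is named by the sources used. RMA normalises arrays to one distribution and compresses differences between dim signals. Of 45101 probe sets, 64 controls were left out. The platform annotation gave 1 symbol to 34945 of the rest, several to 932 and none to 9160, and 34741 matched a RefSeq gene ID. Each of 18193 genes was read from its probe set of highest mean. MTAP+/- and MTAP+/+ livers (4 arrays each, 1 mouse per array) were set against each other with lmFit and eBayes of limma 3.58.1 (R 4.3.3), two-sided, with no term besides genotype. Adjusted p-values come from this limma fit, with Benjamini-Hochberg adjustment across every gene and a threshold of 0.05. Signals below about 6 count as dim. The test was tested on simulated data in 10 runs with 200 changed genes each, and it called 77 of 179930 unchanged genes. The number of arrays limits the precision.

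The members and gene lists were chosen with earlier results of these data known. Named with values were, per complex, up to 5 genes of smallest p and the 2 of highest mean, all complex II genes, genes whose groups did not overlap, isoforms of other tissues, genes whose probe sets disagreed, up to 3 genes per list and Mtap. Promoter windows from RefSeq (GRCm38.p6) matched 75 of 92 genes, with 1 window per gene, and the 50 transcribed bases were left out. Protein sequences were not used here. The alternatives tried averaged all probe sets of a gene, dropped probe sets that may cross-hybridise, filtered at mean signals of 6 and 9, used eBayes with trend, weighted arrays, quantile-normalised again, centred arrays, blocked by replicate number, added the clock score or the 3' minus 5' difference, dropped each array, and moved the threshold. Leaving out the isoforms of other tissues was chosen after seeing the data.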

Additional observations from a re-analysis of the deposited data

Results flagged for a closer look

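In 82 groups of 4 livers checked, a single liver stood apart from the other 3 in 12 (Dixon's test at the 95% level, under which chance gives about 1 in 20 groups). The second MTAP+/- liver did so 3 times. Its Atp5b signal was 12.93 against 12.42 to 12.48 in the other MTAP+/- livers, its Cox8b signal was 4.09 against 4.44 to 4.45, and its 3' minus 5' control difference was 0.713 against 1.08 to 1.12. The third MTAP+/- liver had a Cox7a1 signal of 3.94 against 5.05 to 5.27, and the fourth had a clock score of 1.43 against 2.51 to 2.64.

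The second MTAP+/+ liver stood apart in 5 genes. It was low in Sdhb (12.02 against 12.09 to 12.10), Cox6b2 (4.37 against 4.73 to 4.78), Atp5g3 (12.61 against 12.84 to 12.87) and Ndufa4l2 (4.98 against 5.20 to 5.24), and high in Atp5pb (12.57 against 12.31 to 12.33). The first MTAP+/+ liver was low in Uqcrc2 (11.37 against 11.59 to 11.62) and high in Atp5e (10.84 against 10.45).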

How the results depend on the processing

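In the fit as reported and under the 19 alternatives 0 members passed the adjusted threshold. As reported, 12 had an unadjusted p under 0.05. Of these 11 were lower, a count that was 0 with the clock score and 4 to 16 with 1 array left out. The share of all genes lower at that threshold was 4.74% as reported, 1.44% with the clock score and 3.08% to 6.30% with 1 array left out. The count of called genes, 9 as reported, was 4 with all probe sets of a gene averaged, 1 and 2 with genes of mean signal under 6 and under 9 left out, 0 with the clock score as a covariate, and 3 to 20 with 1 array left out (3 without MTAP+/- replicate 1, and 5, 4, 5 and 20 without MTAP+/+ replicates 1 to 4). Mtap kept its sign, but in several fits its limma adjusted p rose above 0.05, so that it was not called. It did so with genes under 6 left out (-0.80), the clock score (-0.63), the replicate block (-0.80) and without 6 of the 8 arrays. Its change was -0.84 to -0.74 over all 8 fits without 1 array. The complex II median was -0.072 with the clock score and -0.029 to 0.10 with 1 array left out, and that of complex III was -0.0055 and -0.21 to -0.029. The complex I median stayed between -0.22 and -0.14 with 1 array left out. The members' median, -0.14 to -0.06 with 1 array left out, and their count below 0, 64 to 82, kept their direction. The cause of these shifts was not tested.

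Same-numbered livers of both genotypes had correlated deviations of -0.07, 0.22, 0.005 and 0.23, and 4 of 8 livers correlated best with their own number. Those were both livers of replicate 2 and both of replicate 4. The labels do not say whether the numbers mark pairs, and the main fit has no term for them. Whether same-numbered livers share an effect was not tested. With the replicate block 6 genes and 0 members were called, and Mtap had -0.80 with a limma adjusted p of 0.112. In that fit 13 of 92 members and 5.22% of all genes were lower at an unadjusted p under 0.05. The 4 arrays per genotype limit what could be called.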

Other observations

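Probe sets with several symbols, which the choice by symbol left out, cover further subunits. Those of the membrane arm subunit Ndufa11, shared with Ndufa11b, had a log2 change of -0.11 ± 0.18 (SE) at a mean of 9.78 in MTAP+/- and 9.90 in MTAP+/+ livers, and -0.03 for a dim one. The matrix arm subunit Ndufs6, shared with Ndufs6b, had -0.18 ± 0.11 at 10.61 in MTAP+/- and 10.80 in MTAP+/+ livers. The acyl carrier subunit Ndufab1, shared with its pseudogene, had 10.26, 10.18, 10.16 and 10.18 in the MTAP+/- livers, against 10.50, 10.40, 10.40 and 10.33 in the MTAP+/+ livers. These groups did not overlap, although the change was only -0.21 ± 0.09, with an adjusted p of 0.537 over all probe sets in limma. Of the 5 probe sets that name Ndufab1 alone, the brightest had -0.11 with overlapping groups, and the others ran from -0.40 to 0.06. In all, 10 probe sets with several symbols named a subunit, and all 10 had changes below 0. Of all probe sets 52.7% did, and of the member probe sets 80.4%. Some of the 10 name the same gene, and the dim ones had changes of only -0.12 to -0.03.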
